A study of Mus musculus with 217 samples.

Results

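The comparison set the late dark phase against the early dark phase in the nucleus accumbens (NAc) of the mouse. It used 27 of the 217 RNA-seq libraries of the series, chosen by their labels and not by any measured value: every NAc library of zeitgeber time 22 (ZT22) and every NAc library of ZT14, with all 11867 genes of the NAc table. ZT counts hours from lights on, so both times fall in the dark phase, when mice are active, and ZT22 is the later. The ZT22 group held 14 libraries, from 7 females and 7 males, and the ZT14 group held 13, from 6 females and 7 males. All mice were adult C57BL/6J animals about 10 weeks old, with no treatment named in the labels, kept in equal light and dark phases with food and water freely given. No animal gave a library at both times, so the 2 groups are separate mice. Each library came from bilateral tissue punches, so a change in the number of cells of a type and a change in RNA per cell cannot be told apart.

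The NAc is the ventral part of the striatum and is known for its part in reward and motivation. Its main cells are GABAergic medium spiny neurons, which carry D1 or D2 dopamine receptors. Like most tissues it runs a molecular clock, in which CLOCK or NPAS2 pairs with BMAL1 (gene Arntl) at E-box sequences and drives its own repressors, the period, cryptochrome, REV-ERB, DEC and CIART proteins. The same sites drive output factors such as DBP, which act on further genes.

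The striatal identity of the tissue was checked on marker genes, with levels on the deposited log2 scale. Penk, the enkephalin precursor of D2 neurons, lay between 14.71 and 15.84 at ZT22 and between 14.86 and 15.90 at ZT14. Drd1, the D1 receptor, had a median of 12.54 at ZT22 and 12.48 at ZT14. Slc17a7, a marker of cortical projection neurons, varied far more, between 7.74 and 13.51 at ZT22 and between 7.28 and 13.31 at ZT14. At both times its highest level lay above the highest level of Drd1. The part of cortical tissue in the punches was not tested. Mitochondrial rRNA made up 36.2 ± 8.48% of the summed values at ZT22 (SD, n = 14) and 36.3 ± 4.83% at ZT14 (SD, n = 13), a difference smaller than the spread (two-sided permutation test, p = 0.965). Xist, read as a check of the sex labels, was at or above 12.00 in every female library and at or below 8.63 in every male library. Within the males it differed between the times, with medians of 0.30 at ZT22 and 6.62 at ZT14.

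Promoter sequences are shown for 2 genes that the results turn on, Ciart with E-boxes near its start and Dbp without one in the window. They come from RefSeq on GRCm38.p6 and run from 250 bases before to 50 bases after an annotated start, 5′ to 3′ on the gene's strand, with E-boxes (CACGTG) in capitals. The Ciart window is chr3:95882179-95882478 on the minus strand, and the Dbp window is chr7:45704997-45705296 on the plus strand.
Ciart: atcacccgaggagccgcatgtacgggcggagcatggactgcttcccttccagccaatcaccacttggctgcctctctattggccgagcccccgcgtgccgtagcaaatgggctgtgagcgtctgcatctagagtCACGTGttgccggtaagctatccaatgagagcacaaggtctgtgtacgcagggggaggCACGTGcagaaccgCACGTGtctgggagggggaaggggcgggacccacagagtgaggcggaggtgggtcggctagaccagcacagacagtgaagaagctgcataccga
Dbp: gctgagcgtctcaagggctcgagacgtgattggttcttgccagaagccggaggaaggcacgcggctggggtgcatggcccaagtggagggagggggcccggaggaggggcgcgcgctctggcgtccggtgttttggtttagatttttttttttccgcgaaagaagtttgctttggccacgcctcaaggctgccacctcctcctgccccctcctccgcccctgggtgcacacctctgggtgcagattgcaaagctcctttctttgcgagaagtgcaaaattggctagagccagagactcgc

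The 3 Ciart E-boxes begin 116, 58 and 44 bases before the start. Across the 9045 genes with a promoter in the table, 10.5% held CACGTG on either strand. Of the 12 genes that changed, 8 had a promoter in the table, and Ciart was the 1 with a match. Per2, Bhlhe40, Rbm3 and Mtmr4 had no promoter in it and were not searched. The start used for Arhgef3 lay 29094 bases from the 5′ end of the gene. None of those 8 windows held CACGTT (5.34% of all promoters), the D-box TTANGTAA (1.26%), the cAMP element TGACGTCA (3.54%), the glucocorticoid response element (0.254%) or the heat shock element (0.398%). Each was searched on both strands; CACGTG and TGACGTCA read the same on both. The absence of these letters from a window says nothing about binding elsewhere.

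In the late dark phase 12 genes were lower than in the early dark phase, and none was higher, at an adjusted p below 0.05 (limma, sex as covariate, Benjamini-Hochberg over all genes). These 12 were 0.101% of the 11867 genes. They were the clock repressors Per2, Ciart, Bhlhe40 and Nr1d2, the clock output factor Dbp, the cold-inducible Rbm3, the glucose transporter Slc2a1, the kinases Sgk1 and Camk1g, the phosphatase Mtmr4, the splicing regulator Rbm5 and the exchange factor Arhgef3. Their changes, ZT22 minus ZT14, ran between -1.15 and -0.35 on the log2 scale, beside a median of -0.0011 over all genes. All 12 had the same sign in females alone and in males alone, which is no independent support because the same libraries called them. At an unadjusted p below 0.05, 863 genes passed (7.27%), 466 of them lower (3.93%) and 397 higher (3.35%). The count of 12 changed with the libraries and the scaling used. It was 37 with all 77 NAc libraries in the fit and 6 with libraries scaled to an equal sum. The fit of 77 contrasts the same ZT22 and ZT14 libraries, and the other times inform only the spread and the sex term. A gene that passes in that fit gains no independent support from it. Of the 37, 28 were lower and 9 higher, so the absence of higher genes held for the 27-library fit and not for every setting.

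**Figure D1:**
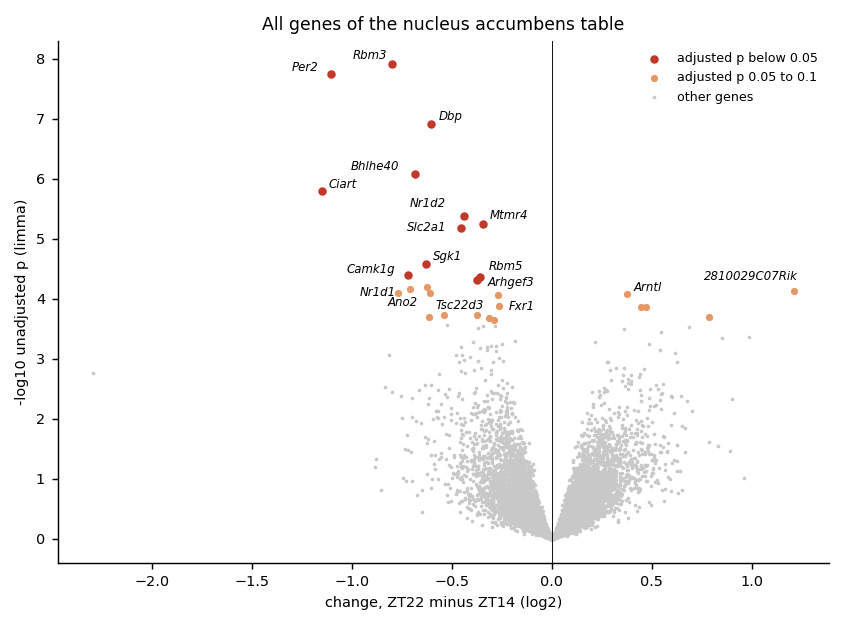
Change at ZT22 minus ZT14 (log2, horizontal) against −log10 of the unadjusted limma p (vertical), 1 point for each of the 11867 genes. The 12 genes with an adjusted p below 0.05 all lie on the left, between -1.15 and -0.35, while 5 of the 16 genes with an adjusted p of 0.05 to 0.1 lie on the right.

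Among the repressors, Per2 encodes a period protein that binds cryptochromes and inhibits CLOCK and BMAL1; it lies on chr1:91415982-91459324 of GRCm38, minus strand. At ZT22 its level was 9.73, 9.59, 9.19, 8.60, 9.33, 9.84 and 9.27 in the females and 8.21, 9.52, 9.66, 9.54, 9.56, 9.18 and 9.62 in the males. At ZT14 it was 9.90, 10.17, 10.63, 9.85, 10.23 and 10.76 in the females and 10.66, 10.82, 10.81, 10.82, 10.76, 10.34 and 10.21 in the males. Every ZT22 library lay below every ZT14 library, although the highest at ZT22, 9.84, was close to the lowest at ZT14, 9.85. The change was -1.10 ± 0.15 (log2, SE; adjusted p = 1.06e-04), or 2.15-fold lower at ZT22. The groups failed to overlap for 2 genes in the table (0.0169%). The other was Zbtb11, a zinc finger gene named after its values were seen, which changed by -0.18 ± 0.05 and did not pass (adjusted p = 0.156).

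Ciart, whose product represses CLOCK and BMAL1, lies on chr3:95878503-95882251, minus strand, and had the lowest level of the 12. At ZT22 it ran between 6.63 and 8.26 with a median of 7.17, and at ZT14 between 7.37 and 9.14 with a median of 8.38. The groups overlapped, with 10 of the 14 ZT22 libraries below the lowest ZT14 library. Its change of -1.15 ± 0.19 (adjusted p = 0.00384) corresponded to a 2.22-fold lower level.

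Bhlhe40, which encodes the E-box repressor DEC1, lies on chr6:108660629-108666925, plus strand. It ran between 9.26 and 10.37 at ZT22, median 9.83, and between 10.17 and 10.82 at ZT14, median 10.61. In 12 of 14 ZT22 libraries it was below all ZT14 libraries, and the change was -0.68 ± 0.11 (adjusted p = 0.00244). Nr1d2, encoding the nuclear receptor REV-ERBβ that represses Arntl, lies on chr14:18204054-18239127, minus strand. It ran between 10.98 and 11.89 at ZT22, median 11.35, and between 11.57 and 12.06 at ZT14, median 11.78. The change was -0.44 ± 0.08 (adjusted p = 0.0083), although 2 of the 14 ZT22 libraries lay above the ZT14 median.

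All 11 members of the core clock repressor list were measured and had negative changes; 4 passed the test and the median was -0.46, beside -0.0011 over all genes. The 7 that did not pass had changes between -0.71 and -0.09. Nr1d1, encoding REV-ERBα, changed by -0.71 ± 0.15 (adjusted p = 0.0545), and Per1 by -0.54 ± 0.13 (adjusted p = 0.0910). Bhlhe41, the DEC2 gene, changed by -0.46 ± 0.12 (adjusted p = 0.164). Cipc, whose product binds CLOCK, changed by -0.27 ± 0.07 (adjusted p = 0.204), and Per3 by -0.45 ± 0.15 (adjusted p = 0.384). The cryptochromes were nearest to 0, with Cry2 at -0.17 ± 0.07 and Cry1 at -0.09 ± 0.12. With animals numbered from 31 only, 4 libraries at ZT22 and 5 at ZT14, the change of Cry1 was 0.17 ± 0.18. With all 77 NAc libraries in the fit 7 repressors passed, with Nr1d1, Bhlhe41 and Cipc beside the 4 (adjusted p = 0.00204, 0.00878 and 0.0150).

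None of the 5 measured core clock activators passed in the 27 libraries. Arntl, the BMAL1 gene, ran between 9.67 and 10.47 at ZT22, median 9.97, and between 9.29 and 9.79 at ZT14, median 9.64. The groups overlapped, and its change of 0.37 ± 0.08 missed the threshold (adjusted p = 0.0545). With all 77 NAc libraries in the fit, which contrasts the same ZT22 and ZT14 libraries, it passed with a change of 0.37 ± 0.09 (adjusted p = 0.0256). The other 4 activators had changes between -0.09 and 0.08.

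The clock output list had 9 measured members, of which 1 passed, 8 had negative changes, and the median was -0.28. The member that passed was Dbp, a PAR bZIP factor that activates through D-boxes, on chr7:45705088-45710203, plus strand. Dbp ran between 10.66 and 11.26 at ZT22, median 11.10, and between 11.10 and 12.15 at ZT14, median 11.70. Each ZT22 library lay below the ZT14 median, with a narrow overlap between the groups, and the change was -0.60 ± 0.09 (adjusted p = 4.81e-04). Hlf, a factor of the same family, changed by -0.29 ± 0.09 (adjusted p = 0.362), and Usp2, a deubiquitinase, by -0.28 ± 0.11 (adjusted p = 0.589).

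**Figure D2:**
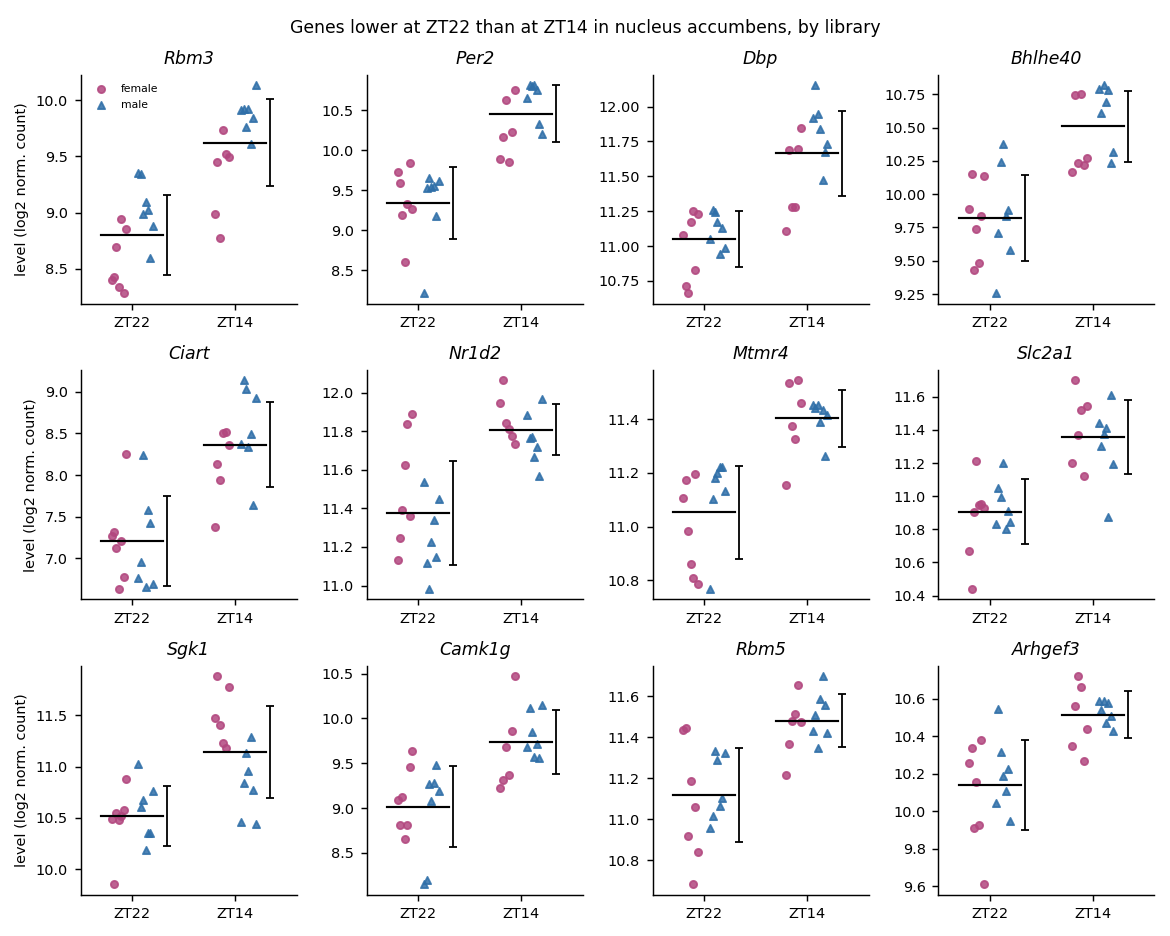
Level of each of the 12 genes (log2 normalised count, vertical) in the 14 ZT22 and 13 ZT14 libraries, with circles for females, triangles for males, a horizontal line for the mean and a bar for the SD. Per2 is the 1 gene of the 12 whose groups do not overlap.

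Outside the clock, Rbm3, which encodes an RNA-binding protein induced by mild cooling, had the smallest p of the table. It lies on chrX:8138975-8145880, minus strand. At ZT22 its level was 8.40, 8.43, 8.69, 8.34, 8.95, 8.28 and 8.85 in the females and 9.35, 9.34, 8.99, 9.09, 9.03, 8.59 and 8.88 in the males. At ZT14 it was 8.99, 9.45, 8.77, 9.73, 9.52 and 9.49 in the females and 9.91, 9.92, 9.76, 9.92, 9.61, 9.84 and 10.13 in the males. The ZT14 females at 8.77 and 8.99 lay within the range of the ZT22 libraries. The change was -0.80 ± 0.10 (adjusted p = 1.06e-04), or 1.74-fold lower. Cirbp, the other measured cold-inducible gene, changed by -0.35 ± 0.13 (adjusted p = 0.511).

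Slc2a1 encodes GLUT1, the glucose transporter of brain endothelium and astrocytes, and lies on chr4:119108711-119137983, plus strand. It ran between 10.44 and 11.21 at ZT22, median 10.92, and between 10.88 and 11.70 at ZT14, median 11.37. Each ZT22 library was below the ZT14 median, and the change was -0.45 ± 0.08 (adjusted p = 0.00961). Of 20 endothelial markers Slc2a1 was the 1 that passed; 11 were negative and 9 positive, and their median was -0.05. Cldn5, a tight junction gene of endothelium, changed by 0.49 ± 0.13 (adjusted p = 0.160). No member of 15 astrocyte markers passed, and their median was -0.03.

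Sgk1, a serine and threonine kinase gene induced by glucocorticoids, lies on chr10:21882184-21999903, plus strand. It ran between 9.85 and 11.03 at ZT22, median 10.53, and between 10.44 and 11.89 at ZT14, median 11.18. The groups overlapped, and the change was -0.63 ± 0.13 (adjusted p = 0.0345). Of 16 measured glucocorticoid targets Sgk1 was the 1 that passed, 15 were negative and the median was -0.26; Per1 belongs to this list and to the clock repressors. Tsc22d3, which encodes GILZ, changed by -0.61 ± 0.13 (adjusted p = 0.0545), and it passed with all 77 NAc libraries in the fit (adjusted p = 0.00878). Nfkbia, the inhibitor of NF-κB, changed by -0.52 ± 0.13 (adjusted p = 0.108). Zbtb16 changed by -0.82 ± 0.22 (adjusted p = 0.187) and Klf9 by -0.32 ± 0.11 (adjusted p = 0.432).

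Camk1g, a calcium and calmodulin dependent kinase gene on chr1:193346346-193370298, minus strand, ran between 8.15 and 9.63 at ZT22 and between 9.23 and 10.47 at ZT14. Its change was -0.72 ± 0.15 (adjusted p = 0.0470). Mtmr4, a phosphoinositide phosphatase gene on chr11:87592162-87616302, plus strand, ran between 10.77 and 11.22 at ZT22 and between 11.16 and 11.54 at ZT14. Its overlap was narrow, and the change was -0.35 ± 0.06 (adjusted p = 0.00961). Rbm5, a splicing regulator on chr9:107740371-107770996, minus strand, ran between 10.68 and 11.44 at ZT22 and between 11.21 and 11.70 at ZT14. It changed by -0.36 ± 0.08 (adjusted p = 0.0470). Arhgef3, an exchange factor for RhoA on chr14:27114899-27403911, plus strand, ran between 9.61 and 10.55 at ZT22 and between 10.27 and 10.72 at ZT14, with a change of -0.37 ± 0.08 (adjusted p = 0.0481).

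Leaving out each of the 27 libraries in turn gave between 8 and 16 genes. Rbm3, Per2, Dbp, Bhlhe40, Ciart, Nr1d2, Mtmr4 and Slc2a1 passed in all 27 of these fits. Sgk1 missed the threshold in 13 of the 27, Camk1g in 18, Arhgef3 in 19 and Rbm5 in 21. Their signs did not change. With libraries scaled to an equal sum Rbm3, Per2, Dbp, Ciart and Nr1d2 passed, and the other 7 kept their sign but missed the threshold, with adjusted p between 0.114 and 0.999 (limma).

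Just past the threshold lay 16 genes with an adjusted p between 0.05 and 0.1, 11 with negative and 5 with positive changes. The positive ones were 2810029C07Rik, a long non-coding RNA (1.21 ± 0.27), Rpp21, an RNase P subunit (0.79 ± 0.19), Entpd3, an ectonucleotidase (0.47 ± 0.11), Rbm28, a nucleolar RNA-binding protein (0.45 ± 0.10), and Arntl. The negative ones included Ano2, a calcium-activated chloride channel (-0.62 ± 0.14), Trib1, a pseudokinase (-0.77 ± 0.17), Lfng, a Notch glycosyltransferase (-0.61 ± 0.15), Camkk1, a kinase upstream of calmodulin kinases (-0.37 ± 0.09), Ogt, the O-GlcNAc transferase (-0.31 ± 0.07), and Fxr1, an RNA-binding protein (-0.27 ± 0.06). The next genes beyond 0.1 were Nfkbia, Narf and Ppp4r3a, each with an adjusted p of 0.108.

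None of the 20 medium spiny neuron genes passed, and their median was 0.06. Ptpn5, the striatal phosphatase STEP, changed by 0.21 ± 0.09 (adjusted p = 0.628). None of the 9 direct pathway, 6 indirect pathway or 12 GABA-A receptor genes measured passed, with medians of 0.05, 0.06 and -0.0038. None of the 22 immediate early genes passed, with a median of -0.07, and Egr1 changed by -0.39 ± 0.19 (adjusted p = 0.685).

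None of the 15 cytosolic heat shock genes or 22 ER chaperones passed, with medians of 0.03 and 0.03. Hspa8, the constitutive HSP70, changed by 0.30 ± 0.09 (adjusted p = 0.314). Hspa5, the ER chaperone BiP, changed by -0.25 ± 0.10 (adjusted p = 0.613), and by 0.08 ± 0.17 with animals numbered from 31 only. Small positive changes were frequent among ribosomal protein genes (76 of 82, median 0.06) and nuclear genes of oxidative phosphorylation (66 of 77, median 0.08), and none of them passed. Over all genes 5893 of 11867 changes were positive. With libraries scaled to an equal sum the 2 medians were 0.03 and 0.05, and in the dorsolateral striatum they were -0.20 and -0.11. Of 14 oligodendrocyte markers none passed, 12 were positive and the median was 0.18, with Opalin at 0.69 ± 0.17 (adjusted p = 0.108). Opalin passed with all 77 NAc libraries in the fit (0.70 ± 0.17, adjusted p = 0.0355). The 5 measured cortical and septal markers were all negative, with a median of -0.31, and none passed. Among them Zic1 changed by -0.60 ± 0.22 (adjusted p = 0.491) and Slc17a7 by -0.30 ± 0.62 (adjusted p = 0.943). The part of cell composition in these values was not tested.

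**Figure D3:**
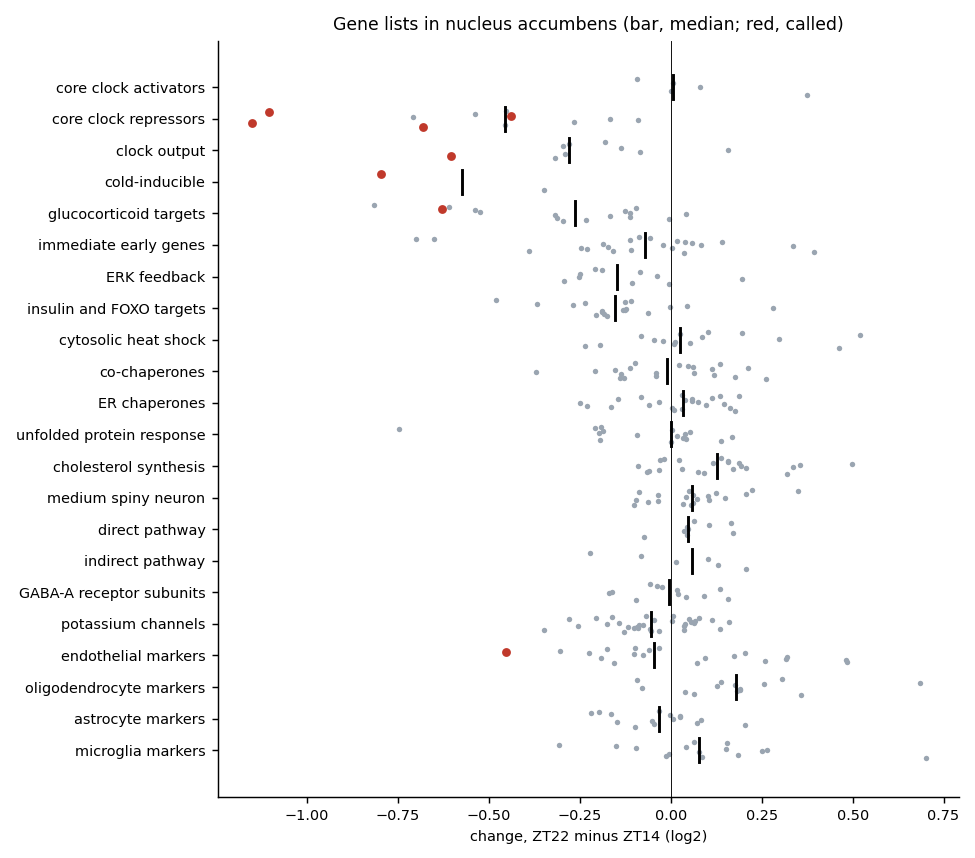
Change at ZT22 minus ZT14 (log2, horizontal) of each measured member of 22 gene lists (rows), with a bar at the list median and called genes in red. Clock repressors have their median at -0.46, and lists of neuronal receptors and chaperones lie around 0.

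The change was compared between the sexes with an interaction of time and sex, and no gene passed (limma, 0 of 11867; 272 genes at an unadjusted p below 0.05). The smallest p belonged to Nfkbia, with changes of -0.13 ± 0.15 in males and -0.95 ± 0.16 in females (difference 0.83 ± 0.21, adjusted p = 1.00). Xist came next, with -4.35 in males and -0.08 in females. The male levels ran between 0.30 and 6.54 at ZT22 and between 5.93 and 8.63 at ZT14. The source of male Xist reads, and of their difference between the times, was not tested. Tgfb1, a cytokine gene, followed with -0.99 ± 0.29 in males and 0.53 ± 0.31 in females. Of the 12 lower genes, Sgk1 had the smallest p for this difference, changing by -0.28 ± 0.14 in males and -1.01 ± 0.16 in females. The difference of 0.74 ± 0.22, with a 95% interval between 0.28 and 1.19, did not pass after limma's adjustment over all genes (adjusted p = 1.00). For Per2 the changes were -1.30 ± 0.18 in males and -0.89 ± 0.20 in females, and for Rbm3 they were -0.83 ± 0.13 in males and -0.76 ± 0.18 in females. With females alone 0 genes passed (315 at an unadjusted p below 0.05), and with males alone 10 did.

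Over the 6 times sampled in the NAc, ZT14 was the highest mean for Per2, Bhlhe40, Nr1d2, Mtmr4, Slc2a1, Sgk1, Camk1g, Rbm5 and Arhgef3. Per2 averaged 9.81 at ZT2, 9.29 at ZT6, 9.59 at ZT10, 10.46 at ZT14, 10.25 at ZT18 and 9.35 at ZT22, with SDs between 0.34 and 0.51 and 12 to 14 libraries per time. Its ZT14 and ZT18 means differed by less than 1 SD. The ZT14 and ZT10 means were also close for Bhlhe40 (10.51 and 10.46, SDs 0.27 and 0.26) and Nr1d2 (11.81 and 11.77, SDs 0.13 and 0.18). For Rbm3, Dbp and Ciart the highest mean was at ZT10 and the lowest at ZT2. Dbp averaged 10.90 at ZT2, 11.35 at ZT6, 11.79 at ZT10, 11.66 at ZT14, 11.29 at ZT18 and 11.05 at ZT22. Arntl ran the other way, with its lowest mean of 9.39 at ZT10 and its highest of 10.35 at ZT2. The means of Mtmr4 at the other 5 times lay between 11.05 and 11.19, against 11.40 at ZT14. These profiles share the ZT22 and ZT14 libraries with the comparison and are a description.

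**Figure D4:**
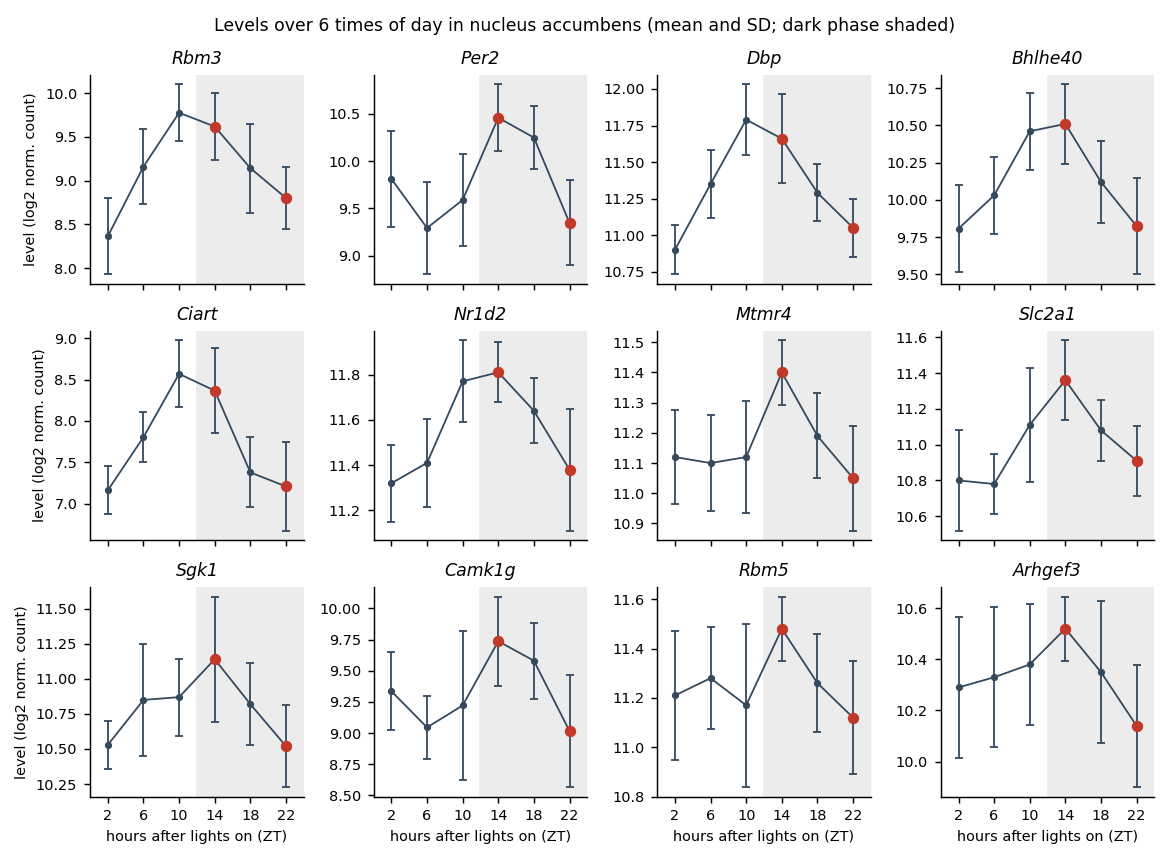
Mean level of the 12 genes (log2 normalised count, vertical) with SD bars at 6 times of day in NAc (hours after lights on, horizontal; dark phase shaded), with ZT14 and ZT22 in red. For 9 of the 12 genes the ZT14 mean is the highest, narrowly so for Bhlhe40 and Nr1d2.

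The same contrast was read in the dorsolateral striatum (DLS, 12 libraries at ZT22 and 12 at ZT14) and the dorsomedial striatum (DMS, 12 at ZT22 and 11 at ZT14). Of these, 20 DLS and 22 DMS libraries came from animals also used for NAc. In DLS 917 of 11394 genes passed (8.05%) and in DMS 1328 of 12101 (11%). The median residual SD per gene was 0.31 in NAc and 0.20 in DLS over their shared genes, and it was larger in NAc for 96.1% of them. The median absolute change, which includes noise, was 0.09 in NAc and 0.10 in DLS. Over the genes shared with DMS it was 0.09 in NAc and 0.15 in DMS, with median residual SDs of 0.32 and 0.23. With unequal SDs these medians do not compare the real changes. All 12 NAc genes were also called lower in DLS, where 4.05% of all genes were called lower. In DMS all 12 had negative changes and 10 were called lower, against 5.12% of all genes. In DMS the mitochondrial rRNA share moved with time, with a median of 23.8% at ZT22 and 39.8% at ZT14. A separate fit with a class term, for libraries of high and low share, called 188 genes (1.55%), 11 of the 12 among them. Arhgef3 was called with the term (limma, adjusted p = 0.0226) and not without it (adjusted p = 0.210). The part of this share in the DMS changes was not tested beyond that term. In DLS it was 41.2% at ZT22 and 42.5% at ZT14.

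The size of the change differed between NAc and DLS for 2 of 11289 genes (0.0177%; limma interaction with animal as a block, 653 at an unadjusted p below 0.05). Ano2 changed by -0.62 ± 0.14 in NAc and -1.73 ± 0.11 in DLS, a difference of 1.10 ± 0.18 (adjusted p = 0.00136). In DLS it averaged 8.51 ± 0.43 at ZT22 and 10.24 ± 0.13 at ZT14 (SD, n = 12 each). In NAc it averaged 9.48 ± 0.40 at ZT22 (SD, n = 14) and 10.11 ± 0.34 at ZT14 (SD, n = 13). Kcna5, a voltage-gated potassium channel, changed by -0.35 ± 0.12 in NAc and -1.14 ± 0.09 in DLS, a difference of 0.79 ± 0.16 (adjusted p = 0.0447). That difference was 0.61 and no longer passed with libraries scaled to an equal sum (adjusted p = 0.519). With animals numbered from 31 only, a fit of few libraries, the NAc change of Kcna5 was 0.05 ± 0.22.

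For the 12 genes no difference from DLS or DMS passed the test. The change was larger in DLS than in NAc for 10 of the 12, and larger in DMS for 7. Against DLS the unadjusted 95% intervals of the difference were 0.22 to 0.81 for Bhlhe40, 0.11 to 0.57 for Dbp and 0.06 to 0.55 for Nr1d2. Ciart changed by -1.15 ± 0.19 in NAc and -1.96 ± 0.13 in DLS, a difference of 0.81 with a 95% interval between 0.32 and 1.30 (adjusted p = 0.631). Per2 changed by -1.10 ± 0.15 in NAc and -1.28 ± 0.12 in DLS, with an interval of the difference between -0.22 and 0.57. Mtmr4 was near-equal at -0.35 ± 0.06 in NAc and -0.34 ± 0.04 in DLS. Against DMS 0 of 11721 genes passed (2351 at an unadjusted p below 0.05, and 325 with the class term). The smallest p values there belonged to Ggh, Tmem41b and Lamp2, with differences of 0.92 ± 0.21, 0.54 ± 0.13 and 0.49 ± 0.12 and an adjusted p of 0.226 each. Per2 changed by -1.10 ± 0.15 in NAc and -0.62 ± 0.13 in DMS (difference -0.48 ± 0.20, adjusted p = 0.226). For Nr1d2 and Dbp the difference from DMS had the other sign, 0.38 ± 0.12 and 0.34 ± 0.11, and did not pass (limma, adjusted p = 0.226 each). These differences were taken without the class term. With it the DMS change went from -0.62 to -0.82 for Per2, from -0.82 to -0.60 for Nr1d2 and from -0.944 to -0.936 for Dbp. It went from -0.56 to -0.22 for Ggh, from -0.43 to -0.22 for Tmem41b and from -0.49 to -0.26 for Lamp2.

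**Figure D5:**
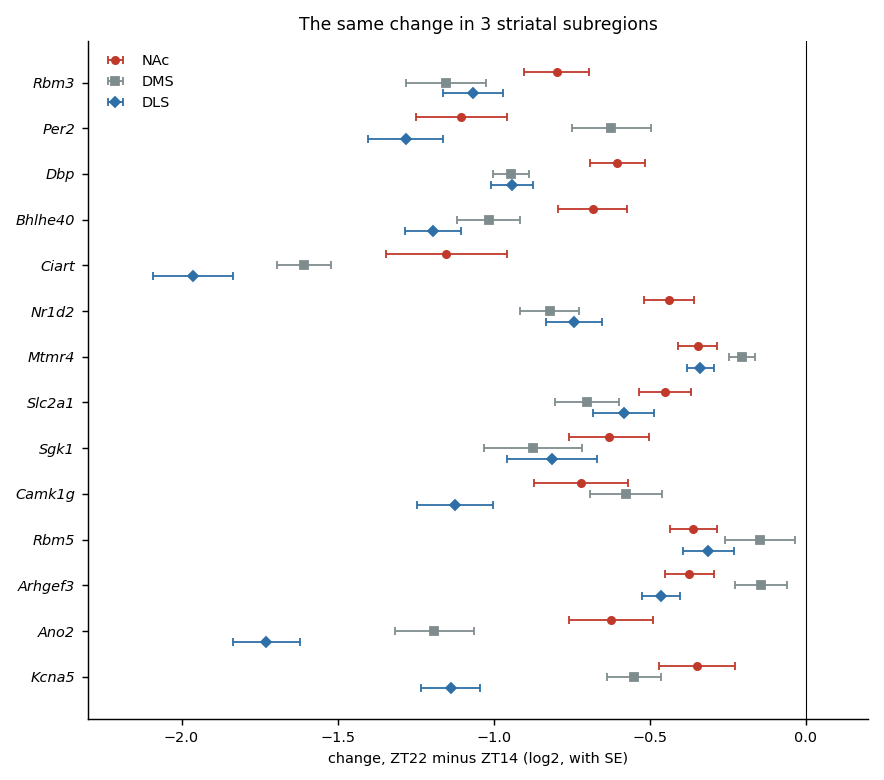
Change at ZT22 minus ZT14 (log2, horizontal) with SE bars in NAc, DMS and DLS for the 12 genes and for Ano2 and Kcna5 (rows). All plotted changes are below 0, and Ano2 lies at -0.62 in NAc and -1.73 in DLS.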

How the data were processed

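Per the study's design text, paired reads from stranded total RNA libraries were aligned by the authors with HISAT2 2.1.0 to GRCm38 and counted with HTSeq 0.10.0 in union mode, then filtered, normalised with DESeq2 and log2-transformed within each subregion; whether counting used strand is not given in the sources used here. The submitters' processing notes name GRCh38, which does not match the species. The share of low deposited log2 values that were whole reads (within 0.01) had a median over libraries of 100% in DMS and DLS, with lowest libraries at 51.1% in DMS and 49.3% in DLS. In NAc it was 2.1%, at most 2.57% in any library, and 9 NAc values were below 0, so the NAc table carries a further step that is not given in the sources used here and its depth is unknown.

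The log2 values were tested with limma 3.58.1 in R 4.3.3 (moderated, variance trend, sex as covariate), adjusted by Benjamini-Hochberg over all 11867 genes and called below 0.05. A sum or share uses the values back on the linear scale. Differences between sexes and between subregions were interaction terms, the latter with animal as a block; tables were normalised separately, so only changes are compared. Symbols and coordinates are from the GENCODE annotation of GRCm38 and matched 11842 of 11867 identifiers. The methods were tested on simulated data with independent errors and the NAc spread in both simulated regions. Factors shared by all genes of a library, and unequal spreads between regions, were not simulated.

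Named genes are the called genes, members of the gene lists, the genes next to the threshold, and the called or smallest-p genes of each difference; the comparison, the lists and these choices were made with earlier results of these data known, and a count over a list is no independent support. Numbers shared by a male and a female of 1 time do not link the times. Alternatives changed the libraries, covariates, scaling, low-value filter and variance model.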

Additional observations from a re-analysis of the deposited data

Results flagged for a closer look

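The 12 called genes and the mitochondrial rRNA share were each checked in the 4 groups of 1 sex and time, which hold 6 or 7 libraries. Of these 52 checks 5 found a library far from the others; at the 95% critical value used, chance gives such a library in about 1 group in 20, and the checks share libraries. Per2 was 8.21 in the ZT22 male numbered 1, against 9.18 to 9.66 in the other males of that time. Mtmr4 was 10.77 in the same animal, against 11.10 to 11.22. Mtmr4 was 11.26 in the ZT14 male numbered 42, against 11.39 to 11.45. Sgk1 was 9.85 in the ZT22 female numbered 2, against 10.48 to 10.88. Ciart was 8.26 in the ZT22 female numbered 50, against 6.63 to 7.32. Per2, Ciart, Mtmr4 and Sgk1 each passed the test without the library named for it.

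The change differed between NAc and DLS for 2 genes, Ano2 and Kcna5, by the test of the difference itself; the cause was not tested.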

How the results depend on the processing

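The 12 genes were 37 with all 77 NAc libraries in the fit (9 higher), 30 with the mitochondrial rRNA share as a term (4 higher), 31 with library weights (4 higher), 6 with libraries scaled to an equal sum and 7 after quantile normalization. They were 1 with animals numbered up to 29 only (758 at an unadjusted p below 0.05), 0 with animals numbered from 31 only (329) and 0 with females only (315), fits with fewer libraries. Leave-one-out fits gave 8 to 16, with 0 to 2 higher. The animal number as a replicate block gave 21 (3 higher); it joins a male and a female of 1 time, 0 of the 18 paired libraries correlated best with its own number, and the pair correlations had a median of -0.12. With a term for Slc17a7, chosen after seeing the data, the count was 12. With an equal sum the NAc minus DLS count was 1, and the NAc minus DLS differences of Per2 (-0.0082), Sgk1 (-0.0028), Slc2a1 (-0.054) and Arhgef3 (-0.10) and the NAc minus DMS differences of Bhlhe40 (-0.0063), Dbp (-0.0011), Sgk1 (-0.10) and Slc2a1 (-0.092) took the opposite sign, none past the threshold. With animals numbered from 31 only, the changes of Cry1 (0.17 ± 0.18), Hspa5 (0.081 ± 0.17) and Kcna5 (0.046 ± 0.22) did so, each smaller than its SE. The mitochondrial rRNA share was 0.804 percentage points higher at ZT22 in females only, less than the spread (SDs 10.4 and 5.13, two-sided permutation test, p = 0.876). The cause of each of these was not tested. The NAc change of each of the 12 genes kept its sign under every setting run. Depth is unknown in NAc, and the median SE of a change was 0.12 (log2).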
